A study of Mus musculus with 37 samples.

Results

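The G2/M phase genes described here are 54 mouse genes, taken by symbol, whose products act in late interphase and mitosis. A gene was kept where its row held at least 20 UMIs summed over a count table, and all 54 of 54 met this in each of the 3 tables, out of 31533 gene symbols in any table. The smallest sums were 219 UMIs for Gas2l3 in the irradiation cohort, 56 for Psrc1 in the 72 h sorted cells and 252 for Cks2 in whole organoids, and no member lay under the minimum. RNA was measured in jejunal organoids, self-renewing cultures of small intestinal epithelium grown from individual adult mice in medium with EGF, Noggin and R-spondin. VIP (vasoactive intestinal peptide), a gut neuropeptide, was given at 100 nM. The irradiation cohort holds Lgr5-EGFP+ cells sorted from organoids of 4 Lgr5-EGFP-IRES-CreERT2 reporter mice, each cultured in 4 ways: non-irradiated and untreated, non-irradiated with VIP for 48 h, irradiated with 6 Gy of X-rays and untreated, and irradiated with 6 Gy followed by VIP for 48 h. A further experiment compared untreated Lgr5-EGFP+ cells with cells given VIP for 72 h in 4 mice of the same reporter strain, and another compared whole organoids of C57Bl/6 mice, 3 untreated and 4 given VIP for 72 h. The reporter is read from the Lgr5 locus, so the sort selects cells by EGFP and not by a cell-cycle phase, and each organoid line comes from 1 mouse.

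The switch into mitosis is made by the cyclin-dependent kinase Cdk1 with its B-type cyclins, after which Aurora kinases, the kinetochore and the spindle move the chromosomes and the anaphase-promoting complex ends the phase. Most of these genes are transcribed in late interphase and are silenced in resting cells by repressor complexes that bind a short promoter element called CHR, often beside CCAAT boxes bound by NF-Y. Crypt base cells divide daily, and ionizing radiation halts the cell cycle at the G2 checkpoint and activates the transcription factor p53. A transcript level in a sample of many cells therefore reflects how many cells are in the phase as well as how much RNA each holds, and with bulk RNA fewer cells in the phase and less RNA per cell cannot be told apart.

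The promoters of the members shared sequence features that their choice did not use. RefSeq promoter windows on GRCm38.p6, from 250 bases before to 50 bases after the transcript start, were found for 47 of the 54 members. A CHR element, searched on both strands as TTTGAA and in its variant form with a central CG dinucleotide (TTCGAA), lay in 36 of 47 members (76.6%), against 21.7% of all 27025 genes with a window and 16.8% of the 7708 of them tested in the irradiation cohort. A CCAAT box on either strand lay in 76.6% of members, against 41.1% of all genes and 43.7% of the tested ones, and both motifs stood in one window in 61.7%, 8.61% and 7.2%. The 150 bases before the start are printed for 3 members that show the usual layout, the kinase gene Cdk1, the topoisomerase gene Top2a and the mitotic-exit gene Cdc20, and for Hmgb2, Ckap2, Psrc1 and Gtse1, whose levels moved with irradiation. Capitals mark the CCAAT boxes and CHR elements on either strand, and a match on the opposite strand appears as its reverse complement.
Cdk1, chr10:69352913-69353062, minus strand: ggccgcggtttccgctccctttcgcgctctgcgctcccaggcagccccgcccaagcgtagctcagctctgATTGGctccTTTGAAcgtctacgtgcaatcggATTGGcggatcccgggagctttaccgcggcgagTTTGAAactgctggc
Top2a, chr11:99024190-99024339, minus strand: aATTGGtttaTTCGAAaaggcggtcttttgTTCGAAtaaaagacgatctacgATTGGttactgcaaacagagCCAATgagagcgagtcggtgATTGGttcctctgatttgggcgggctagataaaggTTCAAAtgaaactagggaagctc
Cdc20, chr4:118437344-118437493, minus strand: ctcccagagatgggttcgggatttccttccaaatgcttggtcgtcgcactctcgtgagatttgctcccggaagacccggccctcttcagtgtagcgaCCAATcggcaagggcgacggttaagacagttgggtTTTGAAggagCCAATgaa
Hmgb2, chr8:57511693-57511842, plus strand: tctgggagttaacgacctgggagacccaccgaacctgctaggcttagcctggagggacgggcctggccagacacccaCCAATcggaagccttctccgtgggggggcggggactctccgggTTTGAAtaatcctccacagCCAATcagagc
Ckap2, chr8:22185820-22185969, minus strand: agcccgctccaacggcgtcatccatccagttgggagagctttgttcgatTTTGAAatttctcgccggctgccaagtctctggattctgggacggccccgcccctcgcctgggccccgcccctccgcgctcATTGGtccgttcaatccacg
Psrc1, chr3:108383688-108383837, plus strand: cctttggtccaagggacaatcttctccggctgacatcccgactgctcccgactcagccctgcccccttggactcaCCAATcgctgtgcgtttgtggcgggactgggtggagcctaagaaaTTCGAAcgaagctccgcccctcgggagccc
Gtse1, chr15:85859557-85859706, plus strand: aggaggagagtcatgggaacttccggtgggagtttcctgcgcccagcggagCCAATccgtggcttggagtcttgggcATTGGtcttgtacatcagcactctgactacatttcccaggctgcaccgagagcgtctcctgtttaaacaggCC
Hmgb2, Ckap2 and Psrc1 each carried at least 1 CCAAT box and 1 CHR element, as Cdk1, Top2a and Cdc20 did. Gtse1 carried CCAAT boxes and 0 CHR elements in both of its windows, and the capitals at the end of its printed stretch are the first bases of a box that runs across the start. Cdca2, which also moved, had no window. A match is a description of the letters and no measurement of binding.

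**Figure D1:**
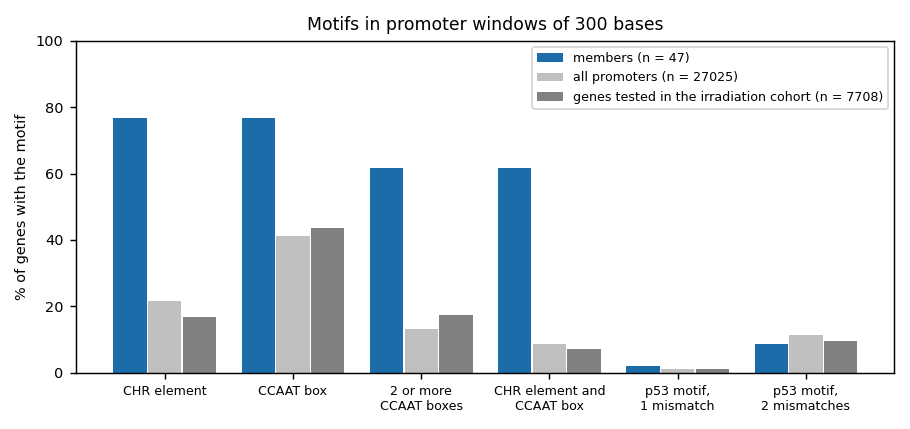
Share of genes (%) whose RefSeq promoter window holds each motif, for the 47 members with a window (blue), all 27025 genes with a window (light grey) and the 7708 of them tested in the irradiation cohort (dark grey). CHR elements and CCAAT boxes stood in 76.6% of members each, and at most 2 mismatches to the p53 motif in 8.51% of members against 11.5% of all genes.

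A second motif was searched only after the levels had been seen. It is the p53 consensus motif, 2 decamers with up to 13 bases between them, searched on both strands. With at most 1 mismatch it was found in 1 of 47 members (2.13%), Gtse1, against 1.24% of all genes, and with at most 2 mismatches in 4 members (8.51%), Gtse1, Ckap2, Birc5 and Kif23, against 11.5%. The best match in Psrc1 had 3 mismatches. The best matches in Gtse1 and Ckap2 are printed because both genes rose with irradiation, all in capitals, with 1 and 2 mismatches.
Gtse1, chr15:85859945-85859964, plus strand: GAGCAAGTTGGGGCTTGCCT
Ckap2, chr8:22186003-22186022, minus strand: AGACATGTCCTGACTTGTCA
The Gtse1 match begins 1 base before the start of the shorter RefSeq transcript and lies inside the gene as annotated by GENCODE M21 (chr15:85859745-85876573, plus strand). The Ckap2 match begins 203 bases before its start, outside the annotated gene (chr8:22168160-22185819, minus strand).

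Levels are given as CPM, the UMI count of a gene scaled by the total of its sample after TMM correction for composition. Depth ran from 1075715 to 1876729 UMIs per sample in the irradiation cohort, from 575242 to 1104126 in the 72 h sorted cells and from 3722716 to 6330404 in whole organoids, with mitochondrially encoded genes at 4.90% to 9.39%. The 2 shallowest cohort samples were irradiated untreated cells of mice 3 and 4. Lgr5 itself stood at 12.6 to 39.0 CPM in the cohort and at 45.2 to 116 in whole organoids, so Lgr5 was not the higher in the sorted cells, although the tables were scaled separately and were not tested against each other. The summed level of 14 stem cell markers was 2988 to 6400 CPM in the cohort and 2441 to 5205 in whole organoids. The sorted cells also carried transcripts of other lineages, and irradiation moved them: all 8 of 8 Paneth cell markers rose in untreated and in VIP-treated cells, and their summed level was 10098 to 14743 CPM in non-irradiated and 14759 to 28881 in irradiated untreated cells. Goblet markers rose for 5 of 8 in untreated and 3 of 8 in VIP-treated cells, enterocyte markers for 4 and 1 of 10, and enteroendocrine markers for 4 and 7 of 8. Of 13 tested stem cell markers 2 fell in both settings, Olfm4 and Smoc2, and 1 rose with VIP, Prom1. Of 11 non-epithelial markers 1 could be tested and rose in both settings, and their summed level was 19.4 to 28.2 CPM in non-irradiated and 36.1 to 79.7 in irradiated untreated cells, with the collagen genes Col1a1 and Col1a2 at 0 in every irradiated untreated sample. Over all tested genes 2.87% rose and 1.59% fell with irradiation in untreated cells, and 4.32% and 3.46% in VIP-treated cells. VIP moved lineage markers too. In irradiated cells 2 of 10 enterocyte and 1 of 8 goblet markers fell and the stem cell marker Olfm4 rose. There 0.221% of all genes were called. In non-irradiated cells 2 of 10 enterocyte markers fell and Olfm4 rose, beside 0.742% of all genes called. In the 72 h sorted cells 1 of 8 Paneth cell markers rose and 1 of 6 tested goblet markers fell, beside 0.0885%. The part of these lineages in the results for G2/M genes was not tested.

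Together the 54 members held a similar part of the RNA in all groups of the cohort. Their share of all UMIs was 0.794% ± 0.027 (SD, n = 4) in non-irradiated untreated cells, 0.834% ± 0.049 with VIP, 0.763% ± 0.079 after irradiation and 0.802% ± 0.063 after irradiation with VIP. In the 72 h sorted cells it was 0.649% ± 0.038 untreated and 0.696% ± 0.040 with VIP (n = 4 each), and in whole organoids 0.588% ± 0.055 (n = 3) and 0.593% ± 0.022 (n = 4). Within mice, irradiation moved the summed level up in 2 mice and down in 2 when untreated, from −0.18 to 0.08 on the log2 scale, and down in 4 of 4 mice with VIP, from −0.13 to −0.01. The irradiated untreated samples of mice 3 and 4, the 2 shallow ones, were the 2 in which it fell. VIP moved the sum up in 4 of 4 mice in non-irradiated cells (0.01 to 0.10) and in the 72 h cells (0.02 to 0.13), but in 2 of 4 mice in irradiated cells and in 1 of 3 in whole organoids. The summed level is given as a description, with no test.

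**Figure D2:**
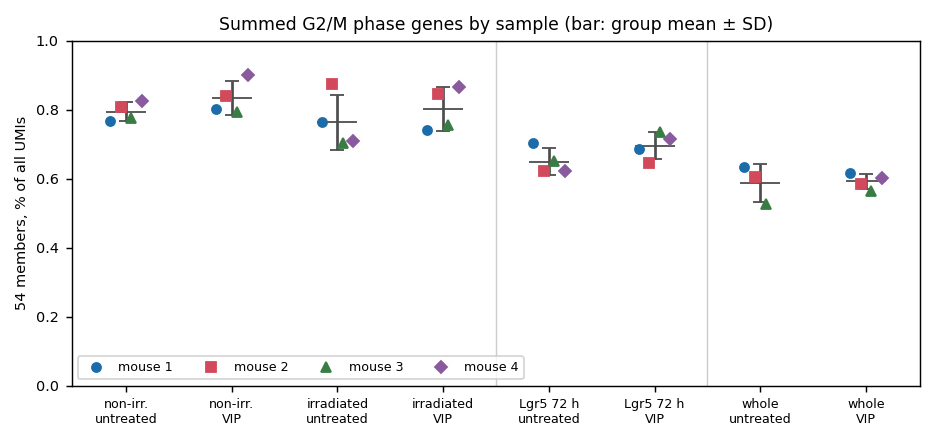
Summed share of all UMIs (%) held by the 54 G2/M phase genes in each sample, with the group mean ± SD as a bar. Colours and shapes mark mouse numbers within an experiment, and the same number in 2 experiments is not the same mouse. The 4 groups of the irradiation cohort overlap, with means from 0.763% to 0.834%.

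The first question for single genes was how irradiation changed them in cells without VIP. Of the 54 members, 3 rose and 1 fell at an adjusted p of 0.05 or less in edgeR's quasi-likelihood test, beside 2.87% of all 9976 tested genes that rose and 1.59% that fell, so the counts lay near those of any genes and the result rests on which members moved. The members that rose were Gtse1, Psrc1 and Ckap2, all of them proteins of spindle microtubules, and the one that fell was Cdca2, which brings protein phosphatase 1 to chromosomes at mitotic exit. Gtse1 and Psrc1 are known from earlier work as p53-inducible genes. The median log2 fold change of the members was −0.07, beside −0.00 over all tested genes, and 36 of 54 estimates were below 0, beside 50.7% of all genes. For 47 members the estimate lay within 0.3 of 0, and for 39 the interval of 2 standard errors on each side lay within 0.5. In 51 members that interval excluded a change of 1 log2 unit. Irradiated and non-irradiated samples did not overlap for 8 members, beside 8.48% of all tested genes.

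Gtse1 binds growing microtubule ends and also acts in recovery from G2 arrest. Its level was 47.7, 55.7, 49.2 and 57.9 CPM in non-irradiated untreated cells of mice 1 to 4, and 75.1, 134, 117 and 146 after irradiation. Every irradiated sample was above every non-irradiated one, and mouse 1 rose least. Over the 4 mice the log2 fold change was 1.14 ± 0.12 (SE), with an adjusted p of 2.58e-06. With VIP the same gene went from 44.4, 53.4, 55.2 and 50.4 to 87.6, 112, 110 and 160, again without overlap (1.20 ± 0.12 on the log2 scale, adjusted p = 2.88e-07).

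Psrc1 is a microtubule-binding protein that helps chromosomes to congress. Without VIP it stood at 66.5, 65.7, 51.5 and 48.6 CPM before and 98.2, 129, 106 and 149 after irradiation. The lowest irradiated sample was well above the highest non-irradiated one (log2 fold change 1.04, SE 0.13, adjusted p = 1.74e-05). With VIP it went from 47.4, 50.4, 61.7 and 45.6 to 111, 136, 125 and 143, a log2 difference of 1.32 ± 0.13 (SE; adjusted p = 2.31e-07). The groups did not overlap there either.

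Ckap2 is a protein of centrosomes and spindle poles. Without VIP it stood at 72.1, 74.5, 75.5 and 69.2 CPM before irradiation and at 76.9, 158, 85.0 and 110 after it. All 4 irradiated samples were above the non-irradiated ones, but mice 1 and 3 by little and mouse 2 by far the most (log2 fold change 0.55, SE 0.15, adjusted p = 0.0346). The call was lost in edgeR without mouse 2 (log2 fold change 0.31, adjusted p = 0.42), without mouse 3 (0.66, adjusted p = 0.0528) and without mouse 4 (0.51, adjusted p = 0.122), and DESeq2 gave an adjusted p of 0.0639. With VIP the level went from 61.2, 70.8, 79.8 and 68.0 to 86.5, 120, 103 and 160, a log2 difference of 0.74 ± 0.15 (adjusted p = 0.00227) without overlap, and without mouse 4 it was 0.54 with an adjusted p of 0.0635.

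Cdca2 fell in both settings. It stood at 59.0, 79.5, 53.2 and 61.9 CPM in non-irradiated and at 37.9, 54.4, 47.3 and 48.4 in irradiated untreated cells, lower in each of 4 mice although mouse 2 after irradiation was above mouse 3 before it (log2 fold change −0.43, SE 0.12, adjusted p = 0.0397). This call was lost in DESeq2 (adjusted p = 0.192) and on leaving out any 1 of the 4 mice. With VIP the values were 63.5, 72.3, 62.3 and 80.8 before and 41.7, 55.7, 53.04 and 52.5 after irradiation, with no overlap and a log2 difference of −0.46 ± 0.12 (adjusted p = 0.0135). That call was lost in DESeq2 (adjusted p = 0.0758) and without mouse 1 or mouse 4.

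Irradiation was also compared within VIP-treated cells, in the same 4 mice but in other samples. Here 3 members rose and 2 fell, beside 4.32% and 3.46% of the 9976 tested genes, again counts near the background. Gtse1, Psrc1 and Ckap2 rose in this setting too, and Hmgb2 fell together with Cdca2. The median over the members was −0.04, beside 0.00 over all genes, and 35 of 54 estimates were below 0. For 44 members the estimate lay within 0.3 of 0, and for 50 the interval excluded a change of 1 log2 unit. Irradiated and non-irradiated samples did not overlap for 7 members, beside 12.8% of all tested genes.

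Hmgb2 codes for a chromatin protein that bends DNA and is abundant in dividing cells. In VIP-treated cells it stood at 671, 633, 556 and 669 CPM before irradiation and at 355, 344, 415 and 458 after it. All 4 irradiated samples were below all non-irradiated ones, by −0.68 ± 0.10 on the log2 scale, with an adjusted p of 7.22e-05 in edgeR and 1.49e-07 in DESeq2. Without VIP the values were 388, 488, 450 and 605 before and 322, 493, 366 and 381 after irradiation. There the groups overlapped, mouse 2 did not fall, and the log2 fold change of −0.29 (SE 0.10) had an adjusted p of 0.121, or 0.0245 without mouse 2. The irradiated samples of both settings covered about the same range, while the non-irradiated ones were higher with VIP, as described for VIP further on.

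**Figure D3:**
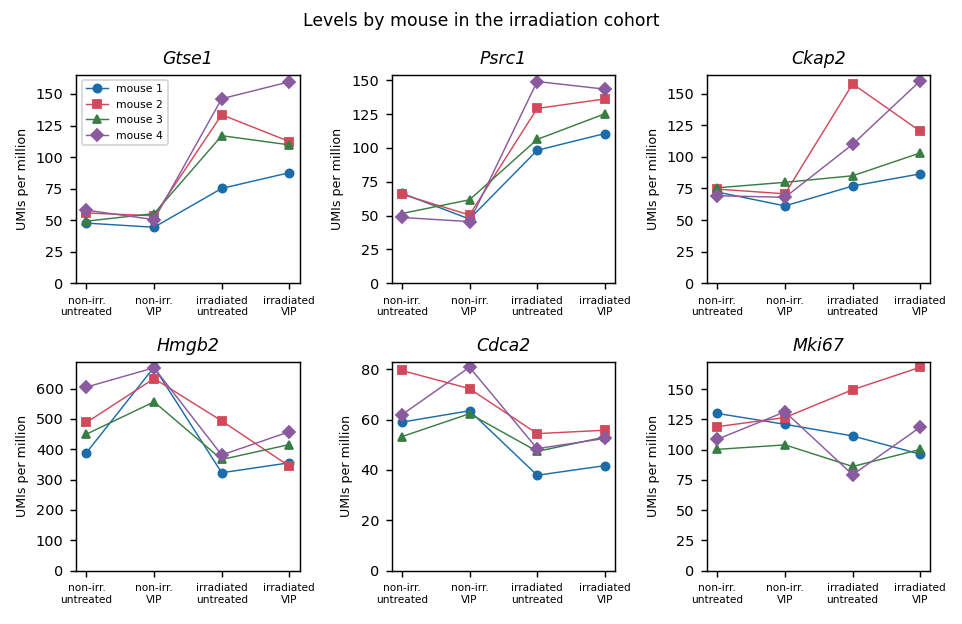
Level (CPM) of Gtse1, Psrc1, Ckap2, Hmgb2, Cdca2 and Mki67 in the 4 groups of the irradiation cohort, 1 line per mouse. Gtse1 and Psrc1 were higher in all 8 irradiated than in all 8 non-irradiated samples. Mki67 overlapped between all groups.

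An adjusted p above 0.05 and up to 0.1 was reached by 2 members without VIP, of which 1 was higher and 1 lower after irradiation, and by 5 with VIP, of which 2 were higher and 3 lower. Tubb4b, a beta-tubulin, stood at 364, 414, 385 and 419 CPM before and 421, 537, 427 and 469 after irradiation without VIP (log2 fold change 0.23, adjusted p = 0.0513) and at a log2 fold change of 0.07 (adjusted p = 0.613) with VIP. Its exons overlap Fam166a on the other strand, and 2 pseudogenes carry its name, so its reads are less certain. Ect2, which activates the small GTPase that forms the cleavage furrow, had log2 fold changes of 0.54 (SE 0.25, adjusted p = 0.264) and, with VIP, 0.80 (SE 0.26, adjusted p = 0.0568). Ect2 was low, at 8.41 to 31.1 CPM over the cohort, and in irradiated VIP-treated cells mouse 2 stood at 31.1 beside 13.9 to 15.7 in the other mice. Kif11, the motor that pushes the spindle poles apart and singled out here after its values were seen, had a log2 fold change of 0.51 with VIP (SE 0.16, adjusted p = 0.0518) and −0.08 without it. The members with lower estimates were also named after their values were seen. Without VIP this was Anp32e, a chaperone of the histone variant H2A.Z, which stood at 339 to 359 CPM before and 273 to 315 after irradiation with no overlap (log2 fold change −0.20, adjusted p = 0.0874). With VIP they were Cdca3, a mitotic entry factor (−0.23, adjusted p = 0.0596), the spindle protein gene Nusap1 (−0.21, adjusted p = 0.0647) and Jpt1 (−0.21, adjusted p = 0.0802), each lower in 4 of 4 mice, with overlapping groups for Nusap1 alone.

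By role, chromosome structure was the one group with every estimate below 0 in both settings. The roles were chosen with earlier results of these data known, so this is a description. Of all 54 members, 36 without VIP and 35 with it had estimates below 0. The nuclear envelope group had 3 of 3 below 0 without VIP and 2 of 3 with it, and the cytokinesis group 2 of 4 and, with VIP, 0 of 4. In chromosome structure all 9 of 9 members (Top2a, Smc4, Ncapd2, Mki67, Hmgb2, Cdca2, Cbx5, Ctcf and Anp32e) had estimates below 0 in untreated cells, with a median of −0.19, and in VIP-treated cells, with a median of −0.08, of which 1 and 2 passed the test. With VIP, 4 of these estimates lay close to 0, at −0.03 for Mki67, −0.02 for Cbx5, −0.02 for Anp32e and −0.02 for Ctcf. Those of Mki67 and Ctcf changed sign under some alternatives, which were not run singly for Cbx5 and Anp32e. The estimate of Top2a changed sign in both settings with 1 mouse left out. The proliferation marker Mki67 stood at 130, 119, 100 and 108 CPM before and 111, 149, 86.0 and 79.2 after irradiation without VIP, so mouse 2 rose while the others fell, and its log2 fold change of −0.10 had an interval from −0.35 to 0.16. Top2a, which untangles sister chromatids, gave −0.06 (interval −0.27 to 0.16) and, with VIP, −0.09 (−0.29 to 0.12). Ctcf, an insulator protein with roles outside mitosis, gave −0.16 and −0.02, and neither passed the test.

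In the cyclin-dependent kinase switch 0 of 5 members passed in either setting, and 4 of 5 estimates were below 0 in both. Cdk1 stood at 359, 347, 348 and 356 CPM before and 320, 345, 321 and 297 after irradiation without VIP. The samples did not overlap, yet the difference was small (log2 fold change −0.13, interval −0.27 to 0.01, adjusted p = 0.348), and with VIP the estimate was 0.11. Ccnb2, a B-type cyclin, gave −0.14 (interval −0.31 to 0.02) without and −0.20 (−0.36 to −0.03) with VIP, at adjusted p of 0.418 and 0.155.

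Among mitotic kinases and the passenger complex 0 of 6 members passed. Aurka, the spindle pole kinase, gave log2 fold changes of −0.04 and, with VIP, −0.08, and Aurkb, the kinase of the passenger complex, −0.08 and −0.23. Birc5, the survivin subunit of that complex, stood at 426, 413, 435 and 423 CPM before and 411, 399, 365 and 357 after irradiation without VIP, lower in each mouse by a small step (log2 fold change −0.14, adjusted p = 0.306), and at −0.10 with VIP. Nek2, a centrosome kinase counted at 12.6 to 30.3 CPM, gave −0.31 and 0.12 with standard errors of 0.23 and 0.22.

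The centromere and kinetochore group had 0 of 8 members past the test in either setting, with medians of −0.03 and −0.04. Cenpa, the centromeric histone, gave −0.09 (interval −0.24 to 0.05) and −0.03 (−0.17 to 0.11). In the ubiquitin ligase and mitotic exit group 0 of 5 passed: Cdc20, an activator of the anaphase-promoting complex, gave 0.02 and −0.04, and Ube2c, its ubiquitin-conjugating enzyme, gave 0.08 and 0.13. The nuclear envelope group (0 of 3) and the cytokinesis group (0 of 4) held no called member either. A p that missed the threshold does not show that a gene did not change, and the intervals above give the sizes that the data allow.

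**Figure D4:**
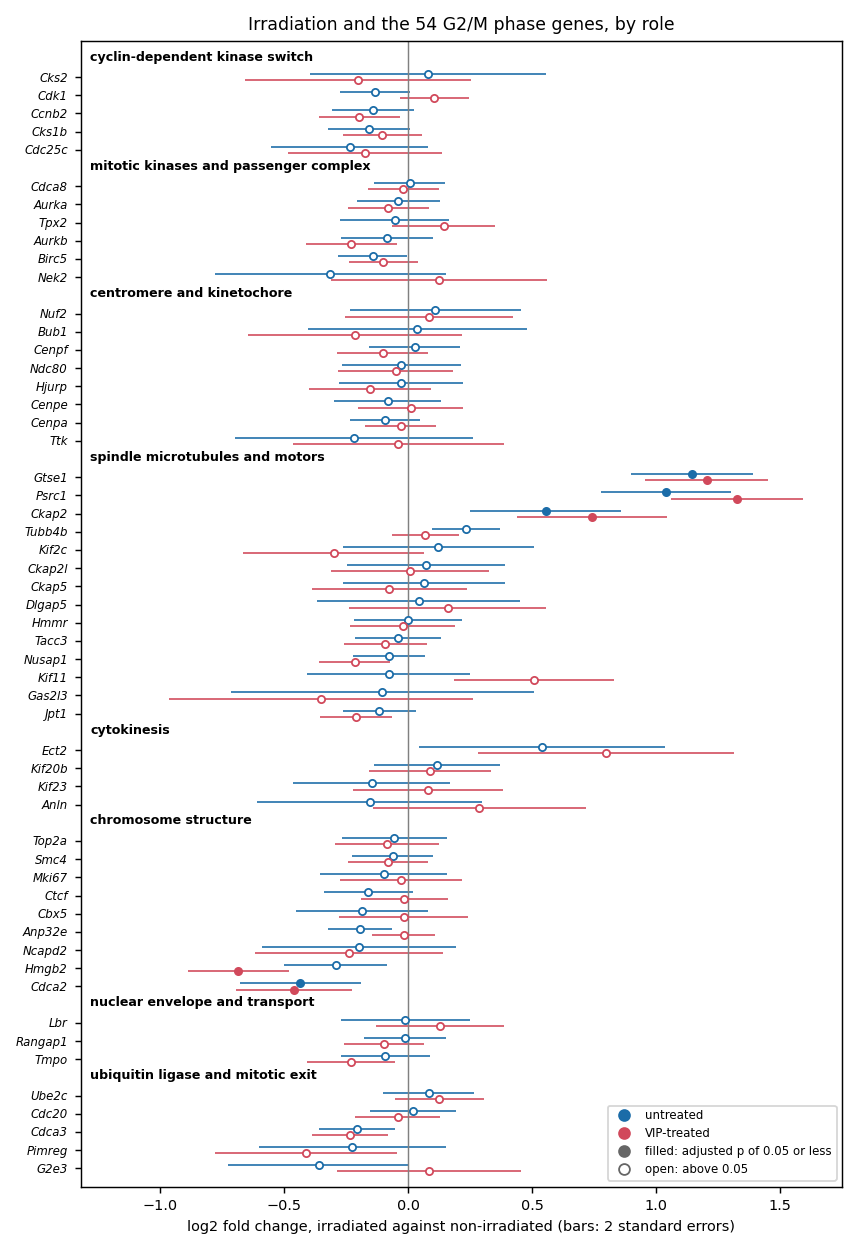
Log2 fold change of each of the 54 members, irradiated against non-irradiated cells, untreated (blue) and VIP-treated (red), grouped by role, with bars of 2 standard errors. Filled points have an adjusted p of 0.05 or less. Gtse1, Psrc1 and Ckap2 lie to the right in both settings, and Cdca2 to the left.

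Genes outside the list give the setting of these values. Of 19 p53 target genes that are not members, 15 rose and 0 fell in both comparisons, with median log2 fold changes of 0.87 without and 1.30 with VIP. Cdkn1a, the p53 target that inhibits cyclin-dependent kinases, stood at 254 to 354 CPM in non-irradiated and 588 to 697 in irradiated untreated cells. With VIP it stood at 160 to 236 CPM before and 615 to 699 after irradiation. VIP itself called 0 of the 19 in irradiated cells (median 0.03). In non-irradiated cells it called 2 lower and 0 higher (median −0.15), and those samples are the baseline of the response with VIP. The interaction test called 0 of the 19. Of 57 tested genes of a further G2/M list, 0 rose and 1 fell without VIP, Spc24, a kinetochore gene (log2 fold change −0.37, adjusted p = 0.00888). With VIP 0 rose and 2 fell, Spc24 and the lamin gene Lmnb1. VIP in non-irradiated cells called 1 of these 57 higher, Lmnb1 (0.39, adjusted p = 0.0478), beside 0.742% of all genes called. That rise and the fall of Lmnb1 share the non-irradiated VIP-treated samples and are not separate results. The cyclin gene Ccnb1 and the kinase gene Plk1 gave 0.06 and 0.04 without VIP, and −0.06 and −0.31 with it (adjusted p = 0.752 and 0.0592). Of 59 tested S phase genes 1 rose without VIP, the ribonucleotide reductase gene Rrm2 (0.30, adjusted p = 0.0145), and 3 fell with VIP, Cdca7, Tk1 and Mcm6. Over all tested genes 2.87% rose and 1.59% fell without VIP, and 4.32% rose and 3.46% fell with it. The counts of the further G2/M list and of the S phase list thus lay near those of any genes.

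The next question was whether VIP changed the response to irradiation. In the interaction test 0 of 54 members passed, as did 0% of all 9976 genes, and 3 members had an unadjusted p under 0.05, beside 6.36% of all genes; DESeq2 called 0. These were Hmgb2 (−0.39, interval −0.68 to −0.10, adjusted p = 0.687), Kif11 (0.59, interval 0.13 to 1.05) and Cdk1 (0.24, interval 0.04 to 0.44). With 1 mouse left out, the Hmgb2 estimate ran from −0.56 without mouse 4 to −0.21 without mouse 2, and that of Cdk1 from 0.15 without mouse 4 to 0.32 without mouse 3. For the genes that rose, the difference between the responses with and without VIP was 0.06 for Gtse1 (interval −0.29 to 0.41), 0.28 for Psrc1 (−0.09 to 0.66) and 0.19 for Ckap2 (−0.24 to 0.62). For Cdca2 it was −0.03 (−0.37 to 0.31). The fall of Hmgb2 with VIP and the uncalled one without it are thus not shown to differ after adjustment over all genes.

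VIP itself called no member in edgeR. In irradiated cells 0 of 54 passed, beside 0.221% of all genes, and 4 had an unadjusted p under 0.05, beside 5.75%; DESeq2 called 0. The smallest p values belonged to Tpx2, an activator of Aurka at the spindle (log2 fold change 0.32, SE 0.11), the kinetochore motor gene Cenpe (0.26, SE 0.11) and the checkpoint kinase gene Ttk (0.53, SE 0.23), with adjusted p of 0.467, 0.74 and 0.769. Tpx2 stood at 48.5, 74.2, 51.2 and 67.1 CPM without and 59.3, 89.2, 72.7 and 80.6 with VIP, higher in 4 of 4 mice with overlapping groups. The genes that irradiation moved were not called for VIP after irradiation: Gtse1 gave 0.00 (interval −0.22 to 0.23), Psrc1 0.10 (−0.13 to 0.34), Ckap2 0.12 (−0.17 to 0.41) and Cdca2 0.12 (−0.13 to 0.37). Hmgb2 gave 0.01 (−0.20 to 0.22).

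In non-irradiated cells VIP again called 0 of 54 members, beside 0.742% of all genes, with 4 at an unadjusted p under 0.05, beside 12.4%; DESeq2 called 1, Hmgb2. Hmgb2 went from 388, 488, 450 and 605 to 671, 633, 556 and 669 CPM, higher in 4 of 4 mice, with mouse 4 untreated above mouse 3 with VIP (log2 fold change 0.40, SE 0.10, adjusted p = 0.0578 in edgeR and 0.0168 in DESeq2). The other 3 were Tubb4b (0.19, adjusted p = 0.204), Rangap1, the activator of the Ran GTPase (0.20, adjusted p = 0.308), and Cdk1 (−0.16, adjusted p = 0.326). Cdk1 stood at 347 to 359 CPM without and 303 to 335 with VIP, with no overlap. Such a lack of overlap was seen for 2 members, beside 6.66% of all tested genes. This comparison and that of irradiation without VIP share the non-irradiated untreated samples, so the values of a gene in both are not independent. It also shares the non-irradiated VIP-treated samples with irradiation in VIP-treated cells. The rise of Hmgb2 here and its called fall there rest on the same high samples and are not separate results.

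VIP for 72 h gave the other view of the same genes. In sorted cells 51 members could be tested, Psrc1 not among them at 1.71 to 22.2 CPM, and 0 passed, beside 0.0885% of the 6778 tested genes, with 3 at an unadjusted p under 0.05, beside 5.5%; DESeq2 called 0. Nek2 went from 23.5, 25.6, 11.0 and 27.4 to 31.8, 43.3, 39.3 and 48.5 CPM, without overlap and higher in 4 of 4 mice (log2 fold change 0.87, SE 0.28, adjusted p = 0.624), although its exons overlap the annotated gene Gm38037 on the other strand. Ect2 gave 0.60 and Top2a 0.28, each with an adjusted p of 0.884. In the same comparison the median over the members was 0.09 beside −0.00 over all genes, with a median standard error of 0.18. Untreated and VIP-treated samples did not overlap for 1 tested member, beside 2.63% of all tested genes.

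In whole organoids 0 of 54 members passed, beside 4.82% of the 12727 tested genes, with 3 at an unadjusted p under 0.05, beside 16.4%; DESeq2 called 0. Tubb4b went from 225, 189 and 237 in untreated organoids of mice 1 to 3 to 295, 285, 256 and 286 CPM with VIP in mice 1 to 4, with no overlap (log2 fold change 0.36, SE 0.10, adjusted p = 0.0603). Without mouse 3, whose untreated sample rests on 1 library, its adjusted p was 2.55e-06. In that fit 3 members passed, Tubb4b, Nusap1 and Hjurp, the last named only for this. How many of all genes passed in that fit was not counted, and mouse 4 had no untreated sample. Nusap1 stood at 193, 204 and 191 without and 158, 148, 182 and 173 with VIP (−0.27, adjusted p = 0.168), and its exons overlap Oip5 on the other strand. Pimreg gave 0.39 (adjusted p = 0.274) at 9.16 to 21.4 CPM. Untreated and VIP-treated organoids did not overlap for 3 members, beside 9.71% of all tested genes.

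**Figure D5:**
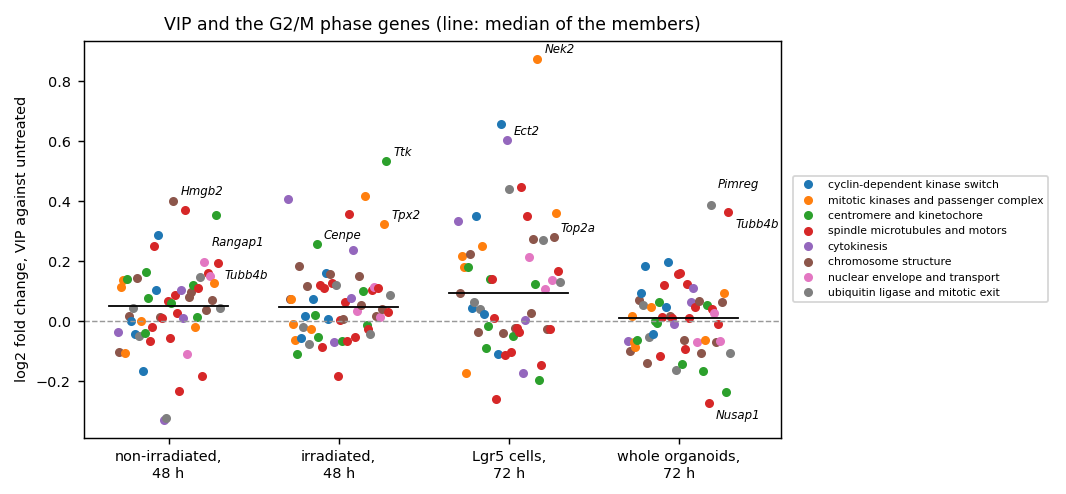
Log2 fold change of each tested member, VIP against untreated, in the 4 comparisons, coloured by role, with the median over the members as a line and the 3 members with the smallest p named. No point passed an adjusted p of 0.05 in edgeR, and the medians ran from 0.01 to 0.09.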

How the data were processed

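RNA of mouse jejunal organoids and sorted Lgr5-EGFP+ cells was read in 37 libraries. The authors barcoded each sample, sequenced 3′ ends with UMIs, and ran the Drop-seq pipeline 1.0 against GRCm38 and GENCODE M25. What they deposited are raw UMI counts by gene and library, without normalization, and 0 columns lacked a sample.

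Libraries marked as technical replicates were added up per culture. The main test was edgeR's quasi-likelihood test (version 4.0.16, in R 4.3.3) after TMM scaling and filterByExpr, fitted over all groups of an experiment with mouse as a blocking factor and with Benjamini-Hochberg adjustment over all tested genes at 0.05. Levels are TMM-scaled counts per total (CPM). A UMI marks a 3′ end, so levels were not divided by gene length. DESeq2 1.42.0, other scalings, other filters, no block and each mouse left out were alternatives. The block follows the labels, in which a replicate number is 1 mouse line. As a check, the correlation across genes of deviations from group means was −0.07 to 0.16 within mice and −0.20 to 0.20 between mice in the cohort, 0.03 to 0.21 and −0.14 to 0.15 in the 72 h cells, and 0.27 to 0.63 and −0.54 to 0.33 in whole organoids.

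Members past the threshold are named, with sample values for up to 8 of them per comparison. Where fewer than 3 passed, the 3 with the smallest p are named, and 15 fixed members are given for irradiation throughout. The members, their roles and the lists were chosen with earlier results of these data known. With mouse as a block, p-values measure the spread that remains after differences between mice are removed, pooled over the groups of an experiment. The scripts were tested on simulated data. Gene positions come from GENCODE M21 on the same build, in which 96.8% of symbols were found. 13 members, among them Cdc20, Ctcf, Nek2, Nusap1, Rangap1, Tubb4b and Ube2c, share exon bases with a gene on the other strand, and the counting was not stated to use strand.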

Additional observations from a re-analysis of the deposited data

Results flagged for a closer look

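Single samples far from the rest of their group of 4 were looked for among 196 groups of values, and 7 were found. Chance gives about 1 in 20. Ect2 in irradiated VIP-treated cells was 31.1 CPM in mouse 2, beside 13.9 to 15.7. Ccnb2 in irradiated untreated cells was 187 in mouse 4, beside 214 to 218. Cdca2 in untreated cells of the 72 h experiment was 68.8 in mouse 1, beside 54.7 to 56.9. In VIP-treated whole organoids mouse 2 was low for Hmgb2, at 195 beside 265 to 272, and for Ube2c, at 119 beside 146 to 150. Depth in the 72 h cells was 1104126 UMIs in mouse 1 with VIP, beside 575242 to 631341, and 864670 in mouse 2 untreated, beside 592632 to 629033.

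Among the 54 members, the direction of VIP was opposite in every mouse of a pair of experiments for 4. Hmgb2 gave a log2 fold change of −0.0616 in whole organoids and 0.40 in non-irradiated sorted cells. Cdca2 gave −0.14 in whole organoids and 0.12 in irradiated sorted cells, Ttk −0.24 and 0.53 in the same pair, and Anp32e −0.0984 and 0.0757 there. These differences were not tested, and the tables were scaled separately. How many of all genes went in opposite directions in this way was not counted, so the number 4 is not a result about the members.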

How the results depend on the processing

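Gtse1 and Psrc1 kept their direction and passed the threshold for irradiation, with and without VIP, under every alternative run, and the median over the members moved by less than its SD between mice in all 83 alternatives. It changed sign under some of them for VIP in whole organoids (−0.03 to 0.03) and for the interaction (−0.02 to 0.04). Without VIP, 2 members (Gtse1 and Psrc1) in place of 4 passed for irradiation with DESeq2, without the replicate block (no pairing by mouse) and with only the samples of the comparison in the fit, and 2 to 5 passed with 1 mouse left out. With VIP, 3 to 6 passed with 1 mouse left out. VIP in non-irradiated cells called 1 member (Hmgb2) in place of 0 with DESeq2, with no low-count filter and with only the samples of the comparison. VIP in whole organoids called 2 with the first technical replicate library only, 1 with no low-count filter, 3 when VIP-treated mouse 3 kept only its first library, and 0 to 3 with 1 mouse left out. Apart from the counts for irradiation without VIP, the fit without the block changed no other count by over 1.5 times. The cause of these changes was not tested, and the share of all genes past the threshold is not given beside these counts.

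Small uncalled estimates changed sign. Cdc20 without VIP was −0.00841 with no low-count filter, and Ctcf with VIP was 0.00427 with at least 10 counts in every sample. With 1 mouse left out, the estimates without VIP ran from −0.0745 to 0.0165 for Aurka, −0.0342 to 0.104 for Cdc20, −0.25 to 0.0481 for Top2a, −0.00512 to 0.161 for Ube2c. With VIP they ran from −0.084 to 0.00824 for Cdc20, −0.0632 to 0.0133 for Cenpa, −0.0487 to 0.0405 for Ctcf, −0.178 to 0.0743 for Mki67, −0.119 to 0.369 for Nek2, −0.18 to 0.011 for Top2a, −0.00675 to 0.185 for Ube2c. Without mitochondrially encoded genes in the total, the members' share was 0.838% in non-irradiated untreated cells, 0.700% and 0.749% in untreated and VIP-treated 72 h cells and 0.6248% in VIP-treated whole organoids. The interval of 2 standard errors excluded 1 log2 unit for 48 of 51 members in the 72 h cells and for 54 of 54 in whole organoids, and the part of depth in this was not tested.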
